A study of Mus musculus with 19 samples.

Results

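The 35 interferon response genes described here were taken by symbol from the 35274 genes of the count tables, and all 35 were found and tested. Of these, 23 are classed as mainly type I induced and 12 as mainly gamma-inducible. The class was assigned by hand from textbook knowledge, and many of the genes answer to both interferons. The samples were RNA from mouse liver cells labelled as hepatocytes, with 5 biological samples in each of 3 populations. All animals carried OPN-CreERT2;Rosa26R-mT/mG, a tamoxifen-inducible Cre recombinase driven by the osteopontin promoter together with a reporter that turns a cell and its descendants from red (tdTomato) to green fluorescence once Cre has acted. CTL samples were native hepatocytes from healthy liver. Chronic liver injury gave the other two: RED samples were native tdTomato hepatocytes, and GREEN samples were hepatocytes called DR-derived in the labels, which do not spell out DR. The sources used here do not give the injuring agent, the age and sex of the animals or which samples came from which animal.

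Interferons are secreted signals of antiviral and antimicrobial defence. Type I interferons (alpha and beta) act through the receptor Ifnar1 and Ifnar2, and a factor that contains Stat2 and Irf9 binds interferon-stimulated response elements. Interferon gamma, made mainly by T and natural killer cells, acts through Ifngr1 and Ifngr2 and through gamma-activated sites in promoters. The induced genes include antiviral effectors (the Ifit, Oas and Mx families), guanosine triphosphatases that act on intracellular microbes (Iigp1, Igtp, the Irgm and Gbp families) and parts of the antigen-processing machinery (Psmb8, Psmb9, Tap1). Hepatocytes carry both receptors and a basal level of many of these genes.

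The libraries held 22442600 to 34216800 estimated counts in experiment 1 (a stranded poly(A) kit) and 38061900 to 44177600 in experiment 2 (a kit that removes ribosomal RNA). With 1 library per sample, every population had 2 libraries made in experiment 1 and 3 made in experiment 2. Levels are in CPM, counts divided by a library size that was scaled by trimmed mean of M values (TMM), and log2 fold changes with their standard error (SE) come from edgeR's quasi-likelihood F test with experiment as a term. Adjusted p-values are Benjamini-Hochberg values over 16387 genes, with 0.05 as the threshold. The hepatocyte identity of the samples was checked with 18 hepatocyte marker genes, all detected in every group, whose summed level was 155000 to 211000 CPM in CTL, 117000 to 170000 in RED and 45700 to 109000 in GREEN. The summed level of 15 biliary markers was 47.6 to 315 CPM in CTL, 102 to 442 in RED and 599 to 9120 in GREEN. In RNA from many cells, fewer cells of a type and less RNA per cell cannot be told apart.

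The promoters of the 2 classes can be read in sequence. RefSeq windows (GRCm38.p6, 250 bases before to 50 after a transcription start) were matched for 18 type I and 10 gamma-inducible genes. They were searched on both strands for the core of the interferon-stimulated response element, GAAANNGAAA (TTTCNNTTTC on the other strand), and for the gamma-activated site, TTCNNNGAA, matches of which may overlap. Of all 32851 windows in the table, 3.44% held the former and 8.3% the latter. Among the type I genes, 11 held the response element, 3 the gamma-activated site and 2 both. Among the gamma-inducible genes, 6 held the response element, 5 the gamma-activated site and 3 both. The stretches below, written 5′ to 3′ on the strand of the gene with the matches in capitals, are examples chosen to show the arrangements that occur. Both motifs were found in both classes. The gamma-inducible genes Irgm1, Gbp2 and Gbp3 held the response element and no gamma-activated site. Of the type I genes, Oas1a and Oas3 held the response element, Ifit2 only a gamma-activated site, and Oasl2 neither. Oas2 and Mx1 had no matched window.
Isg15 (chr4:156200863-156200908, minus strand): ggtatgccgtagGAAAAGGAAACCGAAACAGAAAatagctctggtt
Ifit1 (chr19:34640773-34640825, plus strand): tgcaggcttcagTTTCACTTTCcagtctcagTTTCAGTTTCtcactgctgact
Oas1a (chr5:120907526-120907635, minus strand): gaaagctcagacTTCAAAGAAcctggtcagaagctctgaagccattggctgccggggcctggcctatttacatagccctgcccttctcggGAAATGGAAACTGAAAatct
Oas3 (chr5:120777713-120777746, minus strand): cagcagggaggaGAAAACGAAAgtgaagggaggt
Igtp (chr11:58199499-58199543, plus strand): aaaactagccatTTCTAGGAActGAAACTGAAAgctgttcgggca
Irgm2 (chr11:58214890-58214934, plus strand): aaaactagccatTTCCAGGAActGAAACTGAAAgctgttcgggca
Irf1 (chr11:53769912-53769944, plus strand): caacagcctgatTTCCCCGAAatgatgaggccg
Psmb8 (chr17:34198086-34198118, plus strand): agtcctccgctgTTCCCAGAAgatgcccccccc
Isg15 had 3 overlapping matches to the response element and Ifit1 had 2 separate ones. Igtp and Irgm2, neighbours on chromosome 11, carried a gamma-activated site followed closely by a response element. A match is a description of the letters and not a measured binding site.

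Levels per kilobase of exon, averaged over the 15 libraries, spanned a wide range. Bst2, a membrane protein that tethers budding virus particles, was highest at 101 CPM per kb. It was followed by the gamma-inducible guanosine triphosphatase Iigp1 (46.2 CPM per kb) and the transcription factor Irf1 (21.8 CPM per kb), then Igtp (18.6 CPM per kb). Isg15, a ubiquitin-like modifier, and Stat2, the type I signal transducer, were at 12.6 and 11.5 CPM per kb. The type I effectors that differed most between populations were among the scarcer genes. On the same scale Ifit2 was at 2.57, Oasl2 at 1.03, Oas2 at 0.62 and Oas3, the lowest of the 35, at 0.243 CPM per kb.

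**Figure D1:**
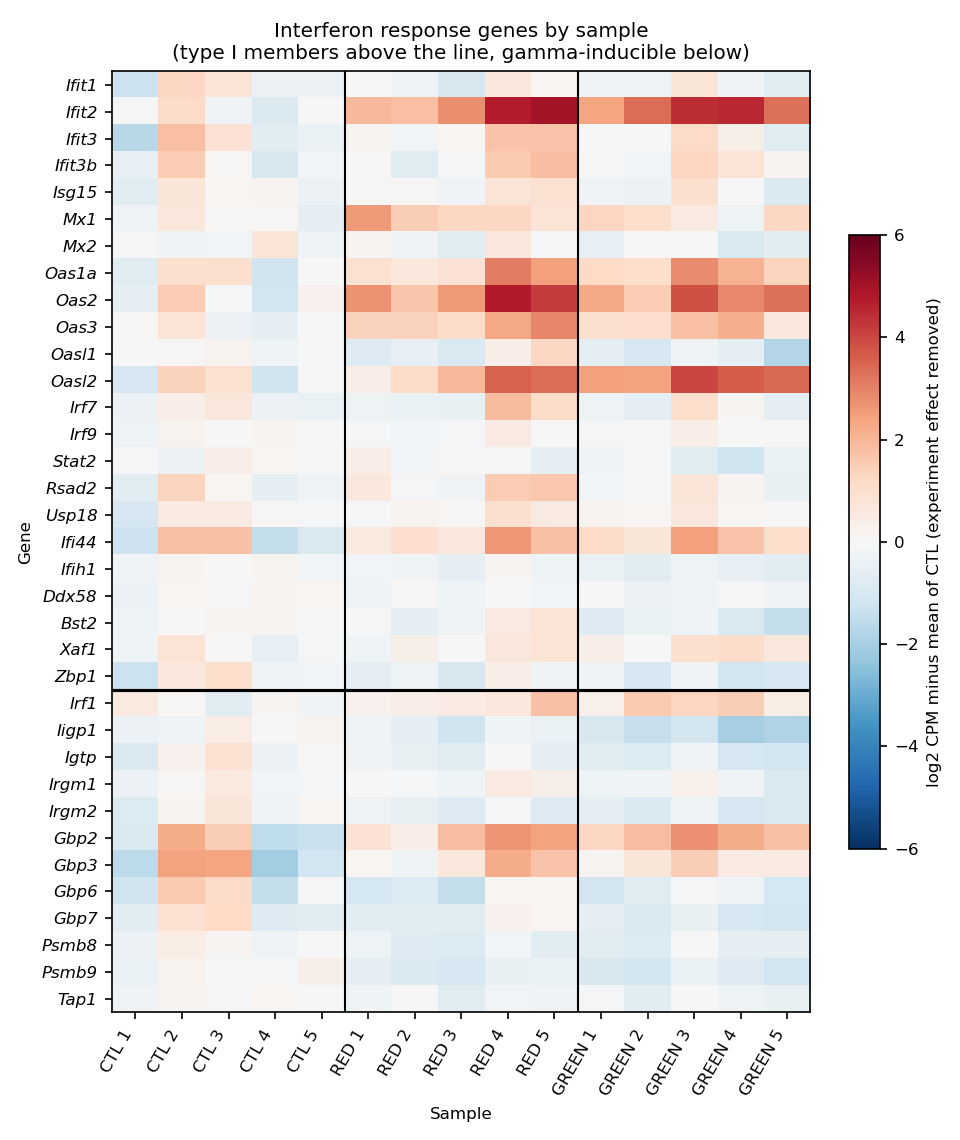
Each row is 1 of the 35 genes and each column 1 of the 15 samples; colour gives log2 CPM, with the experiment effect removed, minus the mean of the 5 CTL samples of that gene. Ifit2, Oas2 and Oasl2 stand out in RED and GREEN, CTL 2 and CTL 3 are high within CTL in the Gbp genes, and Iigp1 is low in GREEN.

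A small set of type I antiviral effectors was higher in the samples of injured liver than in those of healthy liver. The share of the 35 genes called higher was near that of all genes in RED and below it in GREEN. In RED against CTL, 5 of the 35 genes rose, all of the type I class: Ifit2, Oas2, Oas3, Mx1 and Oasl2. That is 14.3% of the 35, beside 14.2% of all genes tested that were called higher in RED. One gene, the immunoproteasome subunit Psmb9, fell, which is 2.86% beside 1.99% of all genes. The median log2 fold change was 0.32 over the 23 type I genes and -0.50 over the 12 gamma-inducible ones, against 0.049 over all genes tested. The share called higher was thus near the background.

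Ifit2, which binds viral RNA and restrains translation, showed the largest difference of the 35. Its CPM was 0.728, 1.83, 1.02, 0.627 and 0.797 in CTL 1 to CTL 5, and 4.67, 2.93, 5.77, 22.3 and 39.3 in RED 1 to RED 5. In GREEN 1 to GREEN 5 it was 4.34, 8.51, 18.0, 28.4 and 12.4. Every RED and every GREEN sample lay above the highest CTL sample, with RED 4, RED 5, GREEN 3 and GREEN 4 the highest of their groups. The log2 fold change was 3.73 ± 0.73 (SE) in RED (adjusted p = 0.0025) and 3.67 ± 0.73 in GREEN (adjusted p = 0.0011), both against CTL. GREEN against RED gave -0.053 ± 0.63 (adjusted p = 0.96). The comparisons with CTL share the CTL samples. Ifit1, Ifit3 and Ifit3b, which neighbour Ifit2 on chromosome 19, passed in no comparison, with log2 fold changes from -0.28 to 0.60 in RED against CTL. Ifit3 and Ifit3b are near-identical, so the split of reads between them is uncertain.

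The 2′-5′ oligoadenylate synthetases make the second messenger that activates the ribonuclease RNase L. Oas2 was at 0.182, 0.914, 0.394, 0.171 and 0.354 CPM in CTL 1 to CTL 5. It was at 3.06, 1.04, 1.94, 9.01 and 8.87 CPM in RED 1 to RED 5, and at 1.59, 0.919, 4.69, 3.55 and 4.73 CPM in GREEN 1 to GREEN 5. All RED and GREEN samples were above all CTL samples, although GREEN 2 exceeded CTL 2 only narrowly. The log2 fold change against CTL was 3.46 ± 0.72 in RED (adjusted p = 0.0039) and 2.82 ± 0.71 in GREEN (adjusted p = 0.0052).

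Oas3 had 0.78, 1.33, 0.394, 0.342 and 0.708 CPM in CTL 1 to CTL 5, and 1.44, 2.00, 1.63, 3.82 and 4.28 CPM in RED 1 to RED 5. GREEN 1 to GREEN 5 had 1.47, 1.51, 2.68, 2.52 and 0.83 CPM. RED did not overlap CTL, and 4 of 5 GREEN samples lay above the highest CTL sample. The fitted log2 difference was 1.93 ± 0.47 in RED (adjusted p = 0.0097) and 1.37 ± 0.46 in GREEN (adjusted p = 0.024). The GREEN call was lost when CTL 1, CTL 3, CTL 4, CTL 5, GREEN 3 or GREEN 4 was left out (adjusted p up to 0.089).

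Oasl2, a ubiquitin-like member of the family, had 0.468, 2.67, 2.36, 0.513 and 0.944 CPM in CTL 1 to CTL 5. RED 1 to RED 5 had 1.61, 2.18, 4.19, 12.2 and 12.8 CPM, and GREEN 1 to GREEN 5 had 5.71, 5.63, 17.2, 15.7 and 13.9 CPM. GREEN lay wholly above CTL, whereas RED 1 and RED 2 lay within the CTL range. On the log2 scale the change was 2.22 ± 0.67 in RED (adjusted p = 0.035) and 3.02 ± 0.69 in GREEN (adjusted p = 0.0029). GREEN against RED was 0.79 ± 0.63 (adjusted p = 0.42).

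Oas1a had 0.961, 3.21, 4.29, 0.912 and 1.59 CPM in CTL 1 to CTL 5, and 4.12, 2.52, 2.97, 14.2 and 11.9 CPM in RED 1 to RED 5. GREEN 1 to GREEN 5 had 3.85, 3.39, 11.9, 9.28 and 5.44 CPM. The groups overlapped. The log2 fold change passed in GREEN (1.63 ± 0.60, adjusted p = 0.036) and not in RED (1.70 ± 0.60, adjusted p = 0.072), and GREEN against RED was -0.071 ± 0.58 (adjusted p = 0.95). The GREEN call was lost without CTL 1, CTL 4, CTL 5, GREEN 3 or GREEN 4 (adjusted p up to 0.12). Oasl1 passed in no comparison, at 0.11 ± 0.39 in RED and -0.74 ± 0.39 in GREEN against CTL. The Oas genes lie in a cluster of paralogs on chromosome 5, so reads may be split among them.

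Mx1, a dynamin-like guanosine triphosphatase that blocks influenza-type viruses, had 2.42, 4.47, 6.38, 6.56 and 1.83 CPM in CTL 1 to CTL 5. It had 36.4, 7.94, 6.66, 6.62 and 10.9 CPM in RED 1 to RED 5, and 6.93, 5.86, 4.15, 5.05 and 14.7 CPM in GREEN 1 to GREEN 5. RED 1 was far above the other RED samples, and the lowest RED sample exceeded the highest CTL sample only narrowly. The estimated log2 fold change was 1.54 ± 0.38 in RED (adjusted p = 0.011) and 0.83 ± 0.37 in GREEN (adjusted p = 0.078). The RED call was lost in each experiment alone (adjusted p = 0.087 and 0.064). Its paralog Mx2 passed in no comparison (-0.00071 ± 0.27 in RED against CTL).

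Groups did not overlap, with RED above CTL, for 4 of the 35 genes (Ifit2, Mx1, Oas2, Oas3), beside 10.6% of all genes. No gene of the 35 had all RED samples below all CTL samples, beside 1.42% of all genes. GREEN lay wholly above CTL for Ifit2, Oas2 and Oasl2, beside 21.0% of all genes, and wholly below it for Iigp1, beside 9.59%. Within experiment 1 alone, the log2 fold changes of RED against CTL were 4.16 for Ifit2, 4.23 for Oas2, 2.58 for Oas3, 1.80 for Mx1 and 2.48 for Oasl2. The first 3 passed. Within experiment 2 alone they were 3.21, 3.04, 1.40, 1.28 and 2.19 in the same order, and none of the 35 passed, with adjusted p of 0.06 to 0.18 for the 5. Oasl2 in RED lost its call when CTL 1, CTL 3, CTL 4, CTL 5, RED 4 or RED 5 was left out (adjusted p up to 0.13), and limma-voom gave adjusted p = 0.054 for Ifit2.

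**Figure D2:**
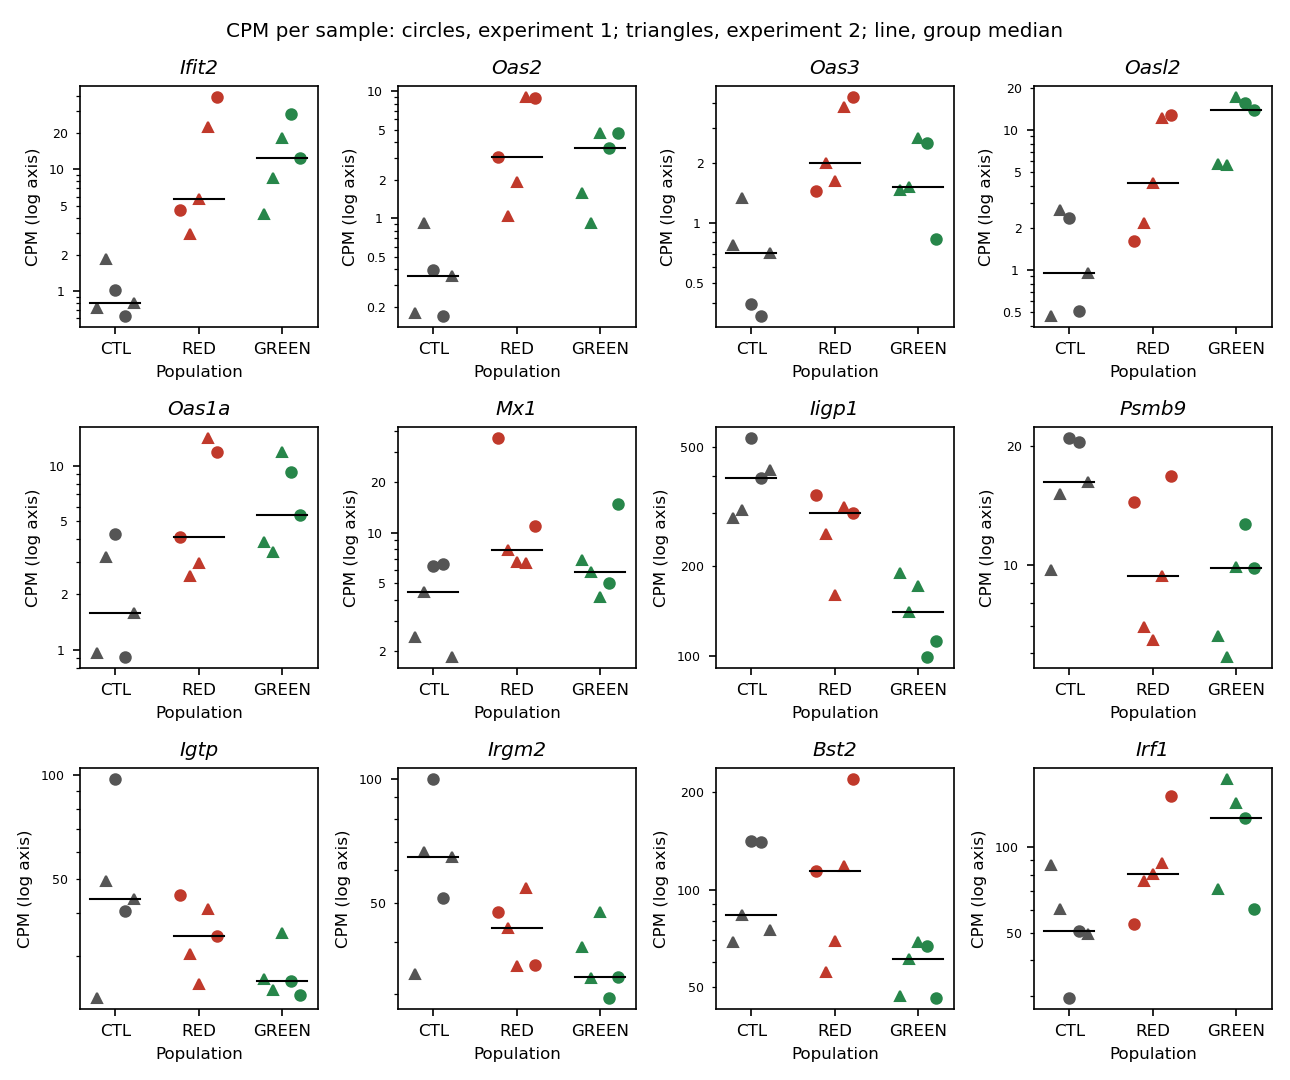
CPM of 12 genes on a log axis, 1 panel per gene, with 1 point per sample (circles experiment 1, triangles experiment 2) and a line at the group median. Ifit2 and Oas2 show no overlap between CTL and either injured population, and Iigp1 shows none between CTL and GREEN.

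Other cells in the samples moved in the same libraries. The summed level of 15 Kupffer cell and macrophage markers was 137 to 198 CPM in CTL, 183 to 2100 in RED and 216 to 772 in GREEN. It was highest in RED 5 and RED 4 among RED, and in GREEN 4 and GREEN 3 among GREEN. Of these markers, 13 rose and 0 fell in RED against CTL (86.7%, beside 14.2% of all genes called higher). In GREEN against CTL 11 rose and 0 fell (73.3%, beside 29.5% of all genes). None of the 15 was at 0 over a whole group. All 15 endothelial markers and all 15 stellate and matrix markers rose in both populations against CTL, beside the same shares of all genes. Summed endothelial markers were at 64.4 to 188 CPM in CTL, 529 to 2710 in RED and 510 to 1080 in GREEN. Plasmacytoid dendritic cell markers, a list of 10 that includes Bst2, summed to 97.9 to 166 CPM in CTL, 109 to 307 in RED and 101 to 136 in GREEN, with Cox6a2 at 0 in CTL. The 17 lymphocyte markers summed to 3.15 to 8.34 CPM in CTL, 12 to 45.2 in RED and 12.8 to 28.2 in GREEN. Nkg7, Ncr1 and Cd79a were at 0 in CTL. Of the 7 lymphocyte markers tested, 2 rose (Cd52 and Ptprc) and 1 fell (Cd4) in each population against CTL. Of 9 neutrophil markers tested, 7 rose and 0 fell in each. The part of these cells in the higher level of Ifit2, Oas1a, Oas2, Oas3, Oasl2 and Mx1 was not tested.

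In GREEN against CTL, 6 of the 12 fell (Iigp1, Psmb9, Irgm2, Igtp, Psmb8 and Gbp7) and 1, Irf1, rose. In the same comparison 14 of 18 hepatocyte markers fell and none rose, with a median log2 fold change of -1.25, and the part of this in the falls was not tested. Over all 35 genes, 8 fell (22.9%, beside 18.6% of all genes) and 6 rose (17.1%, beside 29.5% of all genes). The other genes that fell were the type I members Ifih1 and Bst2. The median log2 fold change was -0.66 over the gamma-inducible genes, 0.015 over the type I genes and 0.11 over all genes tested. The falls depend on scaling, because scaling by library totals in place of TMM moved the median of all genes to 0.83. With totals 13 of the 35 genes were higher and 1, Iigp1, was lower, and the estimates for Ifih1 and Psmb8 turned positive (0.23 and 0.20). Leaving out CTL 1 gave 13 lower, leaving out GREEN 4 or GREEN 5 gave 4 lower, and leaving out CTL 4 or CTL 5 gave 3 higher (Ifit2, Oas2 and Oasl2). Without GREEN 3, GREEN 4 and GREEN 5 together, whose biliary marker sums were the highest, 0 were higher and 3 lower.

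Iigp1, on chromosome 18 at 60376027 to 60392634 (GRCm38), is an immunity-related guanosine triphosphatase loaded onto the vacuoles of intracellular parasites. It had 289, 309, 537, 395 and 418 CPM in CTL 1 to CTL 5, and 345, 255, 160, 315 and 300 CPM in RED 1 to RED 5. In GREEN 1 to GREEN 5 it had 190, 140, 171, 99.0 and 112 CPM. GREEN lay wholly below CTL and overlapped RED only through RED 3. The log2 fold change was -1.44 ± 0.25 in GREEN against CTL (adjusted p = 0.00052) and -0.93 ± 0.25 in GREEN against RED (adjusted p = 0.029). With library totals the former was -0.74 (adjusted p = 0.0066), and it was -2.12 in experiment 1 and -1.03 in experiment 2. RED against CTL was -0.50 ± 0.25 (adjusted p = 0.21).

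The immunoproteasome subunits trim peptides for antigen presentation. Psmb9 had 9.72, 15.1, 20.9, 20.4 and 16.2 CPM in CTL 1 to CTL 5. It had 14.4, 6.98, 6.47, 9.36 and 16.8 CPM in RED 1 to RED 5, and 6.64, 5.86, 9.88, 12.7 and 9.84 CPM in GREEN 1 to GREEN 5. The groups overlapped, with 3 of 5 RED samples below the lowest CTL sample. The fitted log2 difference was -0.66 ± 0.19 in RED (adjusted p = 0.029) and -0.87 ± 0.19 in GREEN (adjusted p = 0.0024), both against CTL. With library totals these were -0.39 (adjusted p = 0.28) and -0.14 (adjusted p = 0.61), and the RED call was lost without CTL 5, RED 2, RED 3 or GREEN 4. Without CTL 1, Irgm2 and Psmb8 also passed as lower in RED.

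Psmb8 had 20.5, 35.6, 31.6, 23.8 and 25.5 CPM in CTL 1 to CTL 5, and 22.4, 15.5, 14.8, 23 and 18.2 CPM in RED 1 to RED 5. GREEN 1 to GREEN 5 had 16.3, 14.7, 26.2, 18.9 and 19.3 CPM, and all but GREEN 3 were below the lowest CTL sample. On the log2 scale the change was -0.52 ± 0.20 in GREEN against CTL (adjusted p = 0.040), a call lost without GREEN 1, GREEN 2, GREEN 4 or GREEN 5. Tap1, which carries peptides into the endoplasmic reticulum and whose 5′ end overlaps that of Psmb9 on the opposite strand, passed in no comparison (-0.28 ± 0.15 in GREEN against CTL). Whether the counting used strand is not stated, so reads of this overlap cannot be assigned to either gene.

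Igtp and Irgm2 are related guanosine triphosphatases of host defence, and Irgm2 overlaps Igtp on the same strand in the annotation, so their reads may be split. Igtp had 22.7, 49.5, 97.4, 40.5 and 44.0 CPM in CTL 1 to CTL 5, 45, 30.5, 24.9, 41.1 and 34.4 in RED 1 to RED 5, and 25.8, 24.0, 35, 25.4 and 23.1 in GREEN 1 to GREEN 5. All GREEN samples lay below all CTL samples other than CTL 1. The estimated log2 fold change was -0.87 ± 0.29 in GREEN against CTL (adjusted p = 0.022). Irgm2 had 33.5, 66.4, 99.8, 51.2 and 64.5 CPM in CTL 1 to CTL 5, 47.5, 43.4, 35, 54.1 and 35.2 in RED 1 to RED 5, and 38.9, 32.7, 47.4, 29.3 and 33.0 in GREEN 1 to GREEN 5. Here too CTL 1 was the sample that overlapped GREEN. The log2 fold change was -0.80 ± 0.24 (adjusted p = 0.016). By library totals both were near 0 (-0.18 and -0.087), and the Igtp call was lost without GREEN 4 or GREEN 5 (adjusted p up to 0.068). Irgm1 passed in no comparison, at -0.23 ± 0.24 in GREEN against CTL.

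The guanylate-binding proteins, which coat vacuoles and bacteria, varied widely within CTL. Gbp3 had 11.6 and 20.7 CPM in CTL 2 and CTL 3 and 0.702 to 0.944 CPM in the other CTL samples. Gbp7 fell by 1.04 on the log2 scale in GREEN against CTL (adjusted p = 0.044), with CTL 2 and CTL 3 at 35.9 and 40.8 CPM and the rest of CTL at 10.2 to 12.1. That call was lost without CTL 2, CTL 3 or any 1 of the 5 GREEN samples, and limma-voom gave adjusted p = 0.11. Gbp2, Gbp3 and Gbp6 passed in no comparison, with log2 fold changes of 1.25 ± 0.71, -0.46 ± 0.82 and -1.05 ± 0.53 in GREEN against CTL.

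Irf1, a transcription factor induced early by interferon gamma, had 86.7, 60.7, 29.5, 50.6 and 49.4 CPM in CTL 1 to CTL 5 and 53.5, 76.2, 80.5, 88.1 and 151 in RED 1 to RED 5. GREEN 1 to GREEN 5 had 70.9, 173, 143, 126 and 60.7 CPM. GREEN 2, GREEN 3 and GREEN 4 exceeded every CTL sample, and the other two lay within the CTL range. The fitted log2 difference was 1.06 ± 0.34 in GREEN against CTL (adjusted p = 0.020), unlike the other gamma-inducible genes past the threshold. That call was lost without CTL 2, CTL 3, CTL 4, CTL 5, GREEN 2 or GREEN 4 (adjusted p up to 0.093).

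The type I members Bst2 and Ifih1 also fell in GREEN against CTL. Bst2 had 68.8, 83.3, 141, 140 and 75.2 CPM in CTL 1 to CTL 5 and 114, 55.6, 69.2, 118 and 219 in RED 1 to RED 5. GREEN 1 to GREEN 5 had 46.9, 61.0, 69.0, 66.9 and 46.3 CPM. Only GREEN 3 of the GREEN samples reached the CTL range. On the log2 scale the change was -0.71 ± 0.27 against CTL (adjusted p = 0.042) and -0.87 ± 0.27 against RED (adjusted p = 0.048). The call against CTL was lost without CTL 4, GREEN 1, GREEN 4 or GREEN 5 (adjusted p up to 0.14), and with library totals the estimate was -0.00054.

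Ifih1, a sensor of long double-stranded RNA, had 46.5, 60.1, 40.4, 45.6 and 47.6 CPM in CTL 1 to CTL 5, and 35.5, 45.8, 37.3, 60.7 and 33.6 in RED 1 to RED 5. GREEN 1 to GREEN 5 had 40.9, 32.9, 43.9, 28.1 and 25.7 CPM, with GREEN 2, GREEN 4 and GREEN 5 below every CTL sample. The estimated log2 fold change was -0.51 ± 0.14 in GREEN against CTL (adjusted p = 0.0087), which turned to 0.23 with library totals. Ddx58, the sensor RIG-I of short double-stranded RNA, was steady, between 29.9 and 42.1 CPM in all 15 samples.

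GREEN and RED, the 2 populations of injured liver, differed in 2 of the 35 genes. Iigp1 and Bst2 were lower in GREEN, which is 5.71% beside 3.22% of all genes, and none was higher, beside 9.68% of all genes called higher in GREEN. For the higher direction 0 genes reached an unadjusted p under 0.05, and DESeq2 and limma-voom also called 0. No gene had all GREEN samples above or below all RED samples, beside 6.66% and 2.25% of all genes. The median log2 fold change was -0.36 over type I and -0.23 over gamma-inducible genes, against -0.021 over all genes. Both differences were larger in experiment 1, with -1.56 for Iigp1 and -1.57 for Bst2 there, against -0.54 (adjusted p = 0.68) and -0.46 (adjusted p = 0.78) in experiment 2. Neither passed with library totals (adjusted p = 0.08 and 0.21). Iigp1 lost its call without RED 1, RED 4, RED 5, GREEN 4 or GREEN 5, and Bst2 without any 1 of 9 samples (CTL 4, CTL 5, RED 1, RED 4, RED 5, GREEN 1, GREEN 3, GREEN 4 or GREEN 5).

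**Figure D3:**
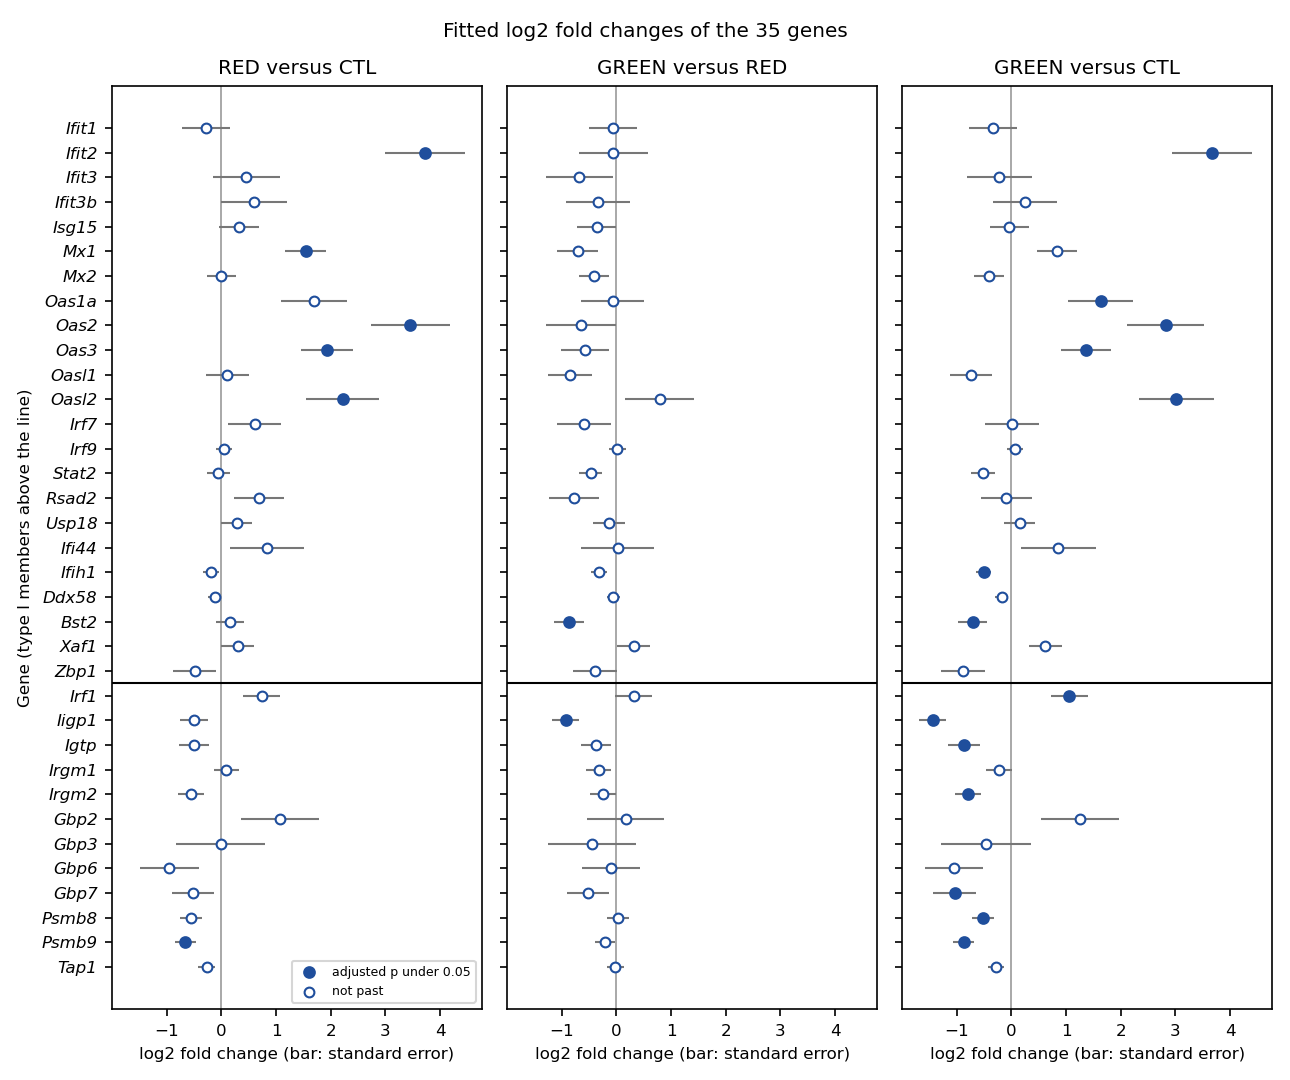
Fitted log2 fold change of each of the 35 genes, with its standard error as a bar, in the 3 comparisons of the populations, on a shared axis. Filled points passed the adjusted p threshold; Ifit2 lies farthest to the right in both comparisons with CTL, followed by Oas2 in RED and Oasl2 in GREEN, and most gamma-inducible genes lie left of 0 in GREEN versus CTL.

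Members that passed in no comparison included the regulators of the pathway. Stat2 had 72.8, 60.1, 98.3, 78.7 and 74.8 CPM in CTL 1 to CTL 5, 95.9, 69.2, 80.4, 73.6 and 51.2 in RED 1 to RED 5, and 63.7, 70.7, 46.8, 32.1 and 55.1 in GREEN 1 to GREEN 5. GREEN 3, GREEN 4 and GREEN 5 were below every CTL sample (-0.52 ± 0.22, adjusted p = 0.058). Irf9 varied little, from 19.6 to 34.2 CPM in the 15 samples. Irf7, the factor that amplifies interferon alpha production, was at 66.1 and 40.0 CPM in RED 4 and RED 5 and at 13.3 to 15 CPM in the other RED samples.

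Isg15 had 3.12, 8.49, 14.6, 15.2 and 4.04 CPM in CTL 1 to CTL 5, 14, 5.37, 4.43, 8.79 and 25.3 in RED 1 to RED 5, and 4.40, 4.00, 9.99, 13.8 and 7.31 in GREEN 1 to GREEN 5. Its groups overlapped, and it differed by 0.32 ± 0.36 in RED and -0.04 ± 0.36 in GREEN against CTL. Rsad2, an antiviral enzyme, Usp18, which removes Isg15 from proteins, Ifi44, Xaf1 and the nucleic acid sensor Zbp1 also passed nowhere. Their log2 fold changes lay between -0.49 and 0.83 in RED and between -0.88 and 0.86 in GREEN, both against CTL.

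Within each population a few samples carried most of the high values. CTL 2 or CTL 3 had the highest CPM within CTL for 15 and 14 of the 35 genes, and CTL 1 the lowest for 19. RED 5 was highest within RED for 16 and RED 4 for 13, and RED 3 was lowest for 17. GREEN 3 was highest within GREEN for 24. The coefficient of variation had a median of 50.4% in CTL, 56.1% in RED and 43.2% in GREEN over the type I genes, and of 40.1%, 31.9% and 25.4% over the gamma-inducible genes. Ddx58 was the least variable type I gene in each population (9.69% to 14.4%).

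The balance of the 23 type I and 12 gamma-inducible genes differed between healthy and injured samples. The mean log2 CPM of the 23 type I genes, with the experiment effect removed, was 2.65 ± 0.54 (SD, n = 5) in CTL, 3.39 ± 0.61 in RED and 3.18 ± 0.37 in GREEN. For the 12 gamma-inducible genes it was 4.62 ± 0.64, 4.58 ± 0.38 and 4.40 ± 0.30. The difference of the 2 means per sample was -2.32 to -1.78 in CTL, -1.37 to -0.91 in RED and -1.43 to -1.12 in GREEN. In it library scaling cancels except through the count added before taking logs, which matters most for scarce genes. CTL overlapped neither injured population, and RED and GREEN overlapped each other. CTL 2 and CTL 3, the CTL samples with the highest level of both classes, kept the CTL balance. Without the 6 type I genes Ifit2, Oas1a, Oas2, Oas3, Oasl2 and Mx1, left out after their values were seen, and without correction for experiment, CTL overlapped both injured populations in experiment 1 and neither in experiment 2. Within experiment 1 the difference was -1.47 to -0.817 in CTL, -1.0 to -0.797 in RED and -1.07 to -0.985 in GREEN. Within experiment 2 it was -1.12 to -1.05 in CTL, -0.959 to -0.632 in RED and -1.04 to -0.831 in GREEN. These values describe the samples and were not tested. The balance is given for these 23 and 12 genes only. Of the further genes counted below, 28.9% of the type I induced list rose in RED against CTL. The share was 27.9% in the gamma-inducible and antigen presentation list. In GREEN against CTL the shares were 40.0% and 39.5%. The median log2 fold changes, in the same order of lists, were 0.34 and 0.17 in RED and 0.28 and 0.1 in GREEN.

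**Figure D4:**
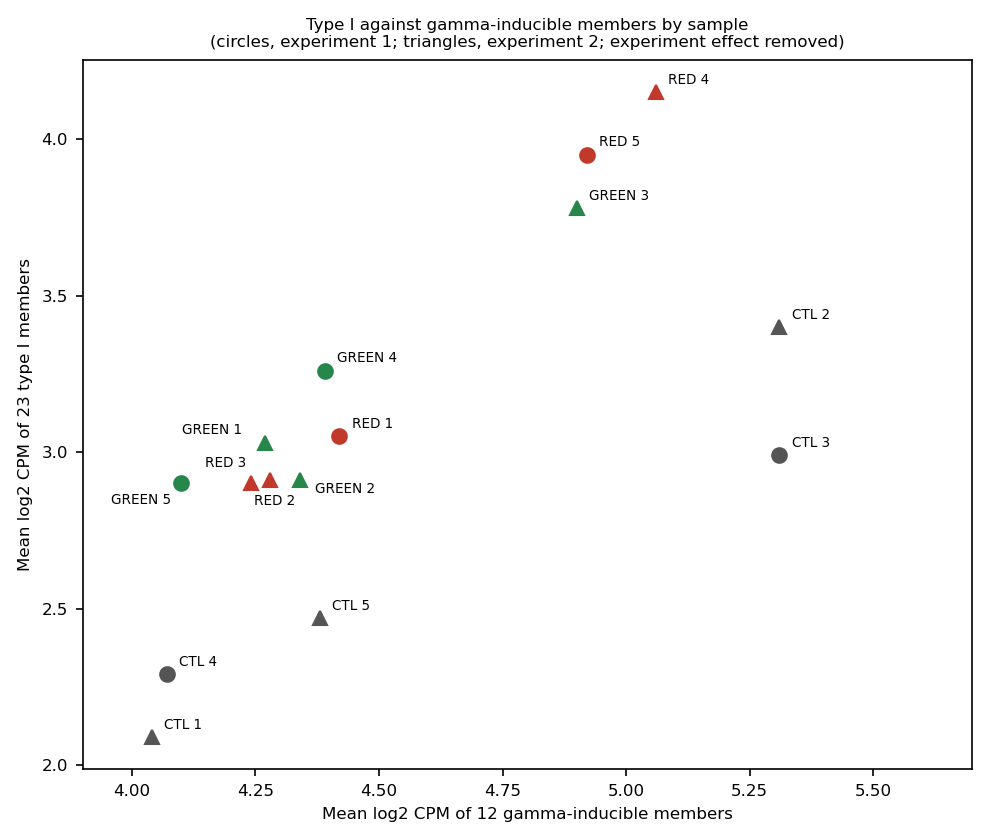
Mean log2 CPM of the 12 gamma-inducible genes (x) and of the 23 type I genes (y), with the experiment effect removed; 1 point per sample, coloured grey for CTL, red for RED and green for GREEN, circles for experiment 1 and triangles for experiment 2. At a given gamma-inducible level the CTL samples lie below the RED and GREEN samples, and RED 4, RED 5 and GREEN 3 have the highest type I means.

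Of 16 interferon genes searched as ligands, 9 had 0 counts in all 15 libraries and 1, Ifnk, passed the filter on low counts. Interferon beta (Ifnb1) had 0 counts in the 5 CTL libraries, which allows up to 0.0195 CPM over the group (3 counts, counting error only). It had 4 and 79 counts in RED 4 and RED 5 and 0 in the other RED libraries. In GREEN it had 0, 17, 31, 136 and 4 counts in GREEN 1 to GREEN 5. RED 5 (3.07 CPM) and GREEN 4 (2.68 CPM) were thus the highest for Ifnb1 and also for Ifit2 in their groups. Mx1 was highest in RED 1 and GREEN 5, Oas2 in RED 4 and GREEN 5, and Oas1a in RED 4 and GREEN 3. Oas3 and Oasl2 were highest in RED 5 and GREEN 3. The macrophage marker sum was also highest in RED 5 and GREEN 4 (2100 and 772 CPM), and a link of Ifnb1 to these genes was not tested. Interferon gamma (Ifng) had 0 counts in CTL, 6 over RED and 12 over GREEN, too few for a test.

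Of 19 receptors and signalling genes, 2 rose and 1 fell in RED against CTL, and 4 rose and 3 fell in GREEN against CTL. The shares that rose, 10.5% and 21.1%, were below the 14.2% and 29.5% of all genes, and the shares that fell were 5.26% and 15.8%, beside 1.99% and 18.6% of all genes. In GREEN against RED 1 rose (5.26%, beside 9.68% of all genes) and 0 fell. Ifnlr1, the receptor chain for interferon lambda, had 0.208, 0.496, 0.0394, 0.684 and 0.295 CPM in CTL 1 to CTL 5 and 0.17, 1.30, 0.91, 1.10 and 0.428 in RED 1 to RED 5. In GREEN 1 to GREEN 5 it had 2.09, 2.08, 5.32, 8.52 and 8.58 CPM, all above every other sample. The log2 fold change of GREEN was 2.70 ± 0.69 against RED (adjusted p = 0.023) and 3.94 ± 0.72 against CTL (adjusted p = 0.00064). The biliary marker sum was highest in the same samples, GREEN 3, GREEN 4 and GREEN 5 (3490, 9120 and 4690 CPM), and its part in this difference was not tested.

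Ifngr1, the binding chain of the interferon gamma receptor, rose by 1.13 ± 0.28 in RED (adjusted p = 0.011) and 1.78 ± 0.28 in GREEN (adjusted p = 0.00026). Its partner chain Ifngr2 did not pass (0.22 ± 0.13 and 0.19 ± 0.13). Il10rb, shared by the interferon lambda and interleukin 10 receptors, rose by 1.43 ± 0.41 in RED (adjusted p = 0.024) and 2.22 ± 0.42 in GREEN (adjusted p = 0.00081). Both were highest in GREEN 3, GREEN 4 and GREEN 5, at 43.2 to 55.6 CPM for Ifngr1 and 21.6 to 34.9 CPM for Il10rb, the samples with the highest biliary marker sums, whose part was not tested. The type I receptor chain Ifnar2 fell by 0.43 in RED (adjusted p = 0.014) and by 0.74 in GREEN (adjusted p = 0.00017), while Ifnar1 was at -0.053 ± 0.087 and -0.022 ± 0.087 and did not pass. The falls of Ifnar2, and of Mavs, B2m and H2-T23 below, are given with TMM scaling only. In GREEN against CTL, library totals moved the median of all genes from 0.11 to 0.83, and most hepatocyte markers fell too, as given above.

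Of 28 genes of nucleic acid sensing, 8 rose and 0 fell in RED against CTL, 2 rose in GREEN against RED, and 11 rose and 5 fell in GREEN against CTL. The shares that rose were 28.6%, 7.14% and 39.3%, beside 14.2%, 9.68% and 29.5% of all genes, and the 5 that fell were 17.9%, beside 18.6% of all genes. Tmem173, the adaptor STING of cytosolic DNA sensing, rose by 3.52 ± 0.66 in RED (adjusted p = 0.0019) and by 5.51 ± 0.70 in GREEN (adjusted p = 5.5e-05). It was at 0.171 to 0.416 CPM in CTL, and at 3.29, 5.96, 21.2, 32.5 and 21.9 CPM in GREEN 1 to GREEN 5. Like the biliary marker sum it was highest in GREEN 3, GREEN 4 and GREEN 5, and the part of that was not tested. Tlr7, an endosomal RNA receptor typical of myeloid cells, rose by 4.23 ± 0.80 in RED (adjusted p = 0.002). Mavs, the mitochondrial adaptor of Ifih1 and Ddx58, fell in GREEN against CTL (-0.95 ± 0.21, adjusted p = 0.0025).

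Other genes of both classes were also counted. Of 45 further type I induced genes tested, 13 rose and 0 fell in RED against CTL, 1 rose and 3 fell in GREEN against RED, and 18 rose and 10 fell in GREEN against CTL. The shares that rose were 28.9%, 2.22% and 40.0%, beside 14.2%, 9.68% and 29.5% of all genes. The shares that fell were 0%, 6.67% and 22.2%, beside 1.99%, 3.22% and 18.6% of all genes. Slfn5 (3.08 ± 0.47), Sp100 (3.20 ± 0.51) and Ifitm1 (3.32 ± 0.55) had the smallest adjusted p in RED against CTL (0.00063, 0.00073 and 0.00089). Ifitm3, a membrane restriction factor, fell in GREEN against RED (-0.67 ± 0.18, adjusted p = 0.026). Of 43 further gamma-inducible and antigen presentation genes, 12 rose and 1 fell in RED against CTL, and 17 rose and 8 fell in GREEN against CTL. Of these 27.9% and 39.5% rose and 2.33% and 18.6% fell, beside the same shares of all genes (14.2% and 29.5%, 1.99% and 18.6%). In GREEN against RED 0 rose and 1 fell (2.33%, beside 3.22% of all genes). The genes that rose included class II presentation: Cd74, the invariant chain, was higher by 3.41 ± 0.70 in RED (adjusted p = 0.0034) and 4.19 ± 0.72 in GREEN (adjusted p = 0.00046). Class I presentation was mixed in GREEN against CTL: B2m (-0.87 ± 0.21, adjusted p = 0.0043) and H2-T23 (-0.88 ± 0.21, adjusted p = 0.0034) fell and H2-Q4 rose (1.04 ± 0.24, adjusted p = 0.0033). H2-Q4 was named after its values were seen, as were H2-K1, H2-D1, H2-Q6 and H2-Q7, which did not pass. Class II genes and Tlr7 are also made by macrophages and dendritic cells. The macrophage marker sum had a higher mean in RED and GREEN than in CTL (959 and 496 against 164 CPM). For plasmacytoid dendritic cell markers, a sum that includes Bst2, the means were 179 CPM in RED and 116 in GREEN, against 128 in CTL. Of that list Tcf4, Irf8 and Ly6d rose in both populations against CTL, and Bst2 fell in GREEN. The part of those cells was not tested.

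The library kit shifted several of the 35 genes. In the 4 samples with a library of each kit, 16 genes were lower in experiment 2 in all 4 and 5 were higher in all 4. The median log2 difference (CPM plus 0.1) was -1.4 for Isg15, -1.0 for Bst2 and -0.93 for Psmb9, and 0.75 for Irf1. Ddx58 hardly moved (-0.026). Each population had the same number of libraries of each kit, and the kit was a term of the fit.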

How the data were processed

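RNA of 15 biological samples (5 each of CTL, RED and GREEN) was sequenced in 19 libraries, each made from 150 ng of RNA per the labels. The values are expected counts per gene that the authors deposited without normalization, estimated with kallisto 0.43.1 on GRCm38 per the submitters' processing notes. Pseudo-alignment splits reads among near-identical genes. CTL 5, RED 2, RED 3 and RED 4 had libraries of both experiments, and the experiment 2 library was used. Estimated counts were rounded, filterByExpr left 16387 genes, and TMM scaling and edgeR 4.0.16 (R 4.3.3) with group and experiment as terms gave all tests, adjusted by Benjamini-Hochberg. Log2 CPM used a prior count of 2, and limma 3.58.1 removed the experiment effect for the sample means. The same steps were run on simulated counts with changes in GREEN only, without a kit effect, shared animals or a mixture of cells. That run cannot show how the fit handles those features. The p-values measure the spread between the samples, whose animals the labels do not name. DESeq2 1.42.0, limma-voom, other scaling, no filter, single experiments, replicate blocks and leaving out samples were alternatives. Members past the threshold were named, the 14 with the smallest adjusted p in full, with the 3 members of each class highest per kb; in other lists at most 6 genes a comparison, by adjusted p. GENCODE M21 gave symbols for 99.0% of genes. Members and lists were chosen with earlier results of these data known.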

Additional observations from a re-analysis of the deposited data

Results flagged for a closer look

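Within the groups of 5, 3 values of the 16 genes given by sample stood far from the others of their group. Mx1 was at 36.4 CPM in RED 1, where the other RED samples were at 6.62 to 10.9, and at 14.7 CPM in GREEN 5, where the other GREEN samples were at 4.15 to 6.93. Igtp was at 35 CPM in GREEN 3, where the other GREEN samples were at 23.1 to 25.8. The gap to the nearest sample, divided by the range of the group, was 0.858, 0.737 and 0.772, above Dixon's critical value of 0.71. Of 48 groups examined, chance flags about 1 in 20. RED 1 and GREEN 5 are libraries of experiment 1 and GREEN 3 is one of experiment 2.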

How the results depend on the processing

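RED versus CTL had 5 genes higher; this was 3 with limma-voom, 3 in experiment 1 alone, 0 in experiment 2 alone, 2 with all 19 libraries in limma-voom with duplicateCorrelation, and 4 to 6 when each sample was left out. It had 1 lower, which was 2 with DESeq2, 0 with library totals, 0 in either experiment alone, 0 with the experiment 1 library of the 4 samples, 3 without GREEN 4 and GREEN 5, 2 without GREEN 3, GREEN 4 and GREEN 5, and 0 to 3 when each sample was left out. GREEN versus RED had 0 higher in every alternative. It had 2 lower, which was 1 with limma-voom, 0 with totals, 1 without the filter, 4 in experiment 1 alone, 0 in experiment 2 alone, 0 with CTL left out, 0 without GREEN 4 and GREEN 5, 0 without GREEN 3, GREEN 4 and GREEN 5, and 0 to 2 when each sample was left out. GREEN versus CTL had 6 higher, which was 13 with totals, 2 in experiment 2 alone, 3 without GREEN 4 and GREEN 5, 0 without GREEN 3, GREEN 4 and GREEN 5, and 3 to 7 when each sample was left out. It had 8 lower, which was 1 with totals, 1 in experiment 2 alone, 3 without GREEN 4 and GREEN 5, 3 without GREEN 3, GREEN 4 and GREEN 5, and 4 to 13 when each sample was left out. In GREEN versus CTL, totals moved the median of all genes from 0.11 to 0.83 and turned the sign of 4 genes past the threshold under either scaling, Ifih1 (0.23), Ddx58 (0.56), Psmb8 (0.20) and Tap1 (0.45), and of 8 more past it under neither, Stat2 (0.17) among them. The fits that left out GREEN samples in pairs or threes, or CTL without a block, were chosen after seeing the data. Single experiments and left-out samples have fewer libraries, and the cause of the other changes was not tested.

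The same code numbers in the library codes link RED 2 with GREEN 1, RED 3 with GREEN 2, RED 4 with GREEN 3 and GREEN 4, and RED 5 with GREEN 5. Over 16387 genes, the correlations of their deviations were 0.577, 0.398, 0.78, 0.435 and -0.223. Same title numbers, a separate numbering, gave -0.223 to 0.578. The code pairs of experiment 2 were thus all positive and RED 5 with GREEN 5 was not, and the main fit did not pair the samples. If the codes mark shared animals, that fit left the pairing out. GREEN 3 and GREEN 4 carry the same library code in different experiments, as do the repeat libraries of RED 2, RED 3 and RED 4. The deviations of GREEN 3 and GREEN 4 correlated at 0.399. Whether they share an animal is not given, and leaving out single samples does not address it. RED 2, RED 3 and RED 4 correlated best with the GREEN sample of their own code in experiment 2, and RED 5 with GREEN 4 (0.449). With the code pairs of experiment 2 as a replicate block, RED versus CTL had 3 higher and 0 lower, with Mx1 (adjusted p = 0.096), Oasl2 (0.11) and Psmb9 (0.16) no longer past. In GREEN versus RED that block kept Iigp1 (-0.94, adjusted p = 0.024) and Bst2 (-0.86, adjusted p = 0.041) as lower. With the library code as a block and CTL left out, GREEN versus RED had 0 lower. With CTL left out and no block, Iigp1 (adjusted p = 0.054) and Bst2 (adjusted p = 0.098) did not pass either. With the title number as a block, RED versus CTL had 0 lower, GREEN versus RED 0 lower and GREEN versus CTL 5 lower.

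Of 22 calls, 11 held without each sample in turn. Over 598 alternative values of these calls, 446 stayed past the threshold in the same direction and 150 kept the direction only. Low counts limit the precision for Oas2, Oas3 and the interferon ligands.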
